A study of Rattus norvegicus with 6 samples.

Results

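The genes described here are the glucocorticoid receptor gene Nr3c1 and 8 genes known as its targets: Fkbp5, Tsc22d3, Dusp1, Klf9, Zbtb16, Cebpd, Cebpb and Sgk1. They were taken as the rows of the gene count table whose gene name equals one of these 9 symbols, and 8 of the 9 were found among 34225 genes. No row carried the name Nr3c1, so the level of the receptor itself is not analysed here. All 8 genes found passed the filter on low counts, which kept 16398 genes for testing.

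The study sequenced RNA from back skin of Sprague-Dawley rats, an outbred laboratory stock, to describe the rash that inhibitors of the epidermal growth factor receptor (EGFR) cause. The libraries were 2 from rats given gefitinib by mouth at 80 mg/kg once daily until a rash appeared, 2 from rats given afatinib by mouth at 30 mg/kg once daily until a rash appeared, and 2 from untreated rats. Gefitinib is a reversible and afatinib an irreversible EGFR kinase inhibitor, and the dose differed between them. The labels do not state age, sex, days of dosing, hour of sampling or vehicle, and they do not say that the libraries of a group came from separate animals, so the p-values measure only the spread between these samples.

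The glucocorticoid receptor is a nuclear receptor that waits in the cytoplasm in a complex with Hsp90 and its co-chaperones, binds corticosterone in rats, and then enters the nucleus, where it binds DNA as a dimer and switches genes on, or holds back inflammatory genes by way of other transcription factors. Fkbp5, Tsc22d3, Dusp1, Klf9, Zbtb16 and Sgk1 are widely used readouts of this activity. In skin, glucocorticoids restrain inflammation and the growth of keratinocytes, and topical glucocorticoids are a common treatment for inflamed skin, the rash caused by EGFR inhibitors included.

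Total counts per library ran from 17206456 to 22086673. Levels are CPM, the counts of a gene scaled to a common library size, after TMM scaling, which sets libraries against each other by the bulk of their genes, and each value is given per library in the order of the replicate numbers. The libraries differed in the RNA of tissue and cell type markers. The hair follicle and shaft markers moved together most often: 12 of 12 were higher for both inhibitors, with a median log2 fold change of 3.97. They summed to 4672 and 4049 CPM with gefitinib, to 1199 and 3571 CPM with afatinib, and to 81.5 and 290 CPM in untreated skin, with none at 0. Of the Schwann cell markers 5 of 7 were lower, with a median of -1.91 and sums of 214 and 123 CPM with gefitinib, 259 and 183 CPM with afatinib, and 1334 and 884 CPM in untreated skin. Of the endothelial markers 3 of 6 were lower, with a median of -1.29 and sums of 205 and 71.9 CPM with gefitinib, 282 and 238 CPM with afatinib, and 475 and 387 CPM in untreated skin. None of these Schwann cell or endothelial markers was at 0 in any library. The 12 skeletal muscle markers tested held 4.49% and 7.92% of the counts in the gefitinib libraries, 14.4% and 4.91% in the afatinib libraries, and 18.4% and 17.1% in the untreated libraries, so afatinib replicate 1 lay near the untreated libraries. None of the 12 was at 0 in any library, and 0 of the 12 passed the test for both inhibitors against untreated. The 7 neutrophil markers summed to 726 and 1281 CPM with gefitinib, to 1932 and 1693 CPM with afatinib, and to 16.4 and 16.1 CPM in untreated skin. Fpr1 was at 0 in all 6 libraries, Cxcr2 and Mmp8 were at 0 in untreated replicate 2, and 4 of the 6 neutrophil markers tested were higher. Cxcr2 had few reads, 10 and 9 with gefitinib, 12 and 62 with afatinib, and 2 and 0 in untreated skin. Mmp8 had 70 and 90, 31 and 77, and 2 and 0 reads in that order of groups. The 8 keratinocyte markers summed to 3024 and 2994 CPM with gefitinib, to 2577 and 4601 CPM with afatinib, and to 1529 and 848 CPM in untreated skin. None of these 8 was at 0, and 4 of the 8 were higher. The 7 fibroblast markers summed to 6179 and 1218 CPM with gefitinib, to 8931 and 3305 CPM with afatinib, and to 21460 and 10156 CPM in untreated skin, with none at 0 and 0 of 7 passing the test. In whole skin, fewer cells of a type and less RNA per cell cannot be told apart. Of the other markers, 1 of 7 for T cells, 1 of 5 for mast cells and 2 of 5 for sebocytes were higher, and 0 of 7 for adipocytes, 0 of 8 for macrophages and 0 of 2 for erythrocytes passed. All these marker counts are for both inhibitors together, where 11% of all genes tested were higher and 4.93% lower. With afatinib alone, 7 of 12 hair, 4 of 6 neutrophil and 0 of 8 keratinocyte markers were higher. There 3 of 7 Schwann cell and 0 of 6 endothelial markers were lower, beside 3.6% of all genes higher and 0.372% lower. Gefitinib alone gave the same counts for these markers as both inhibitors, beside 12.3% higher and 5.45% lower. The part of these marker shifts in the results below was not tested.

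Across both inhibitors, 4 of the 8 target genes were lower than in untreated skin and none was higher: Tsc22d3, Zbtb16, Klf9 and Cebpd, which fell by factors of 2.02 to 4.07. Calls were made with edgeR's quasi-likelihood test over all 16398 genes at a Benjamini-Hochberg adjusted p below 0.05. In the same comparison 16% of all genes tested passed, 4.93% lower and 11% higher. The median log2 fold change of the 8 genes was -0.98, beside 0.06 for all genes tested, and 7 of the 8 had a fold change below 0, as did 47.1% of all genes. With each drug taken alone the calls were fewer. Gefitinib gave 1 of 8 lower, Klf9, where 17.7% of all genes passed in either direction, 12.3% higher and 5.45% lower, and the median of the 8 genes was -0.82 beside 0.04 for all genes. Afatinib gave 1 of 8 lower, Cebpd, where 3.98% of all genes passed in either direction, 3.6% higher and 0.372% lower, and the median of the 8 genes was -1.15 beside 0.09 for all genes. These comparisons share the untreated libraries.

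**Figure D1:**
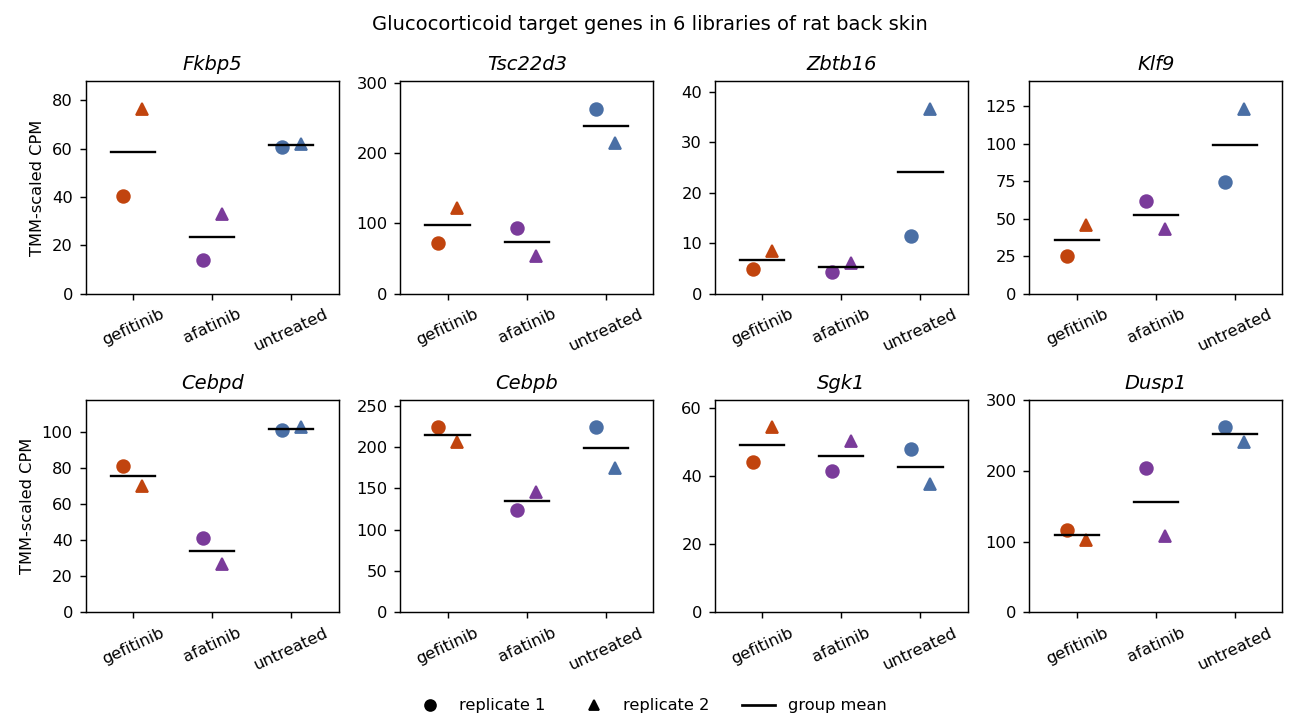
TMM-scaled CPM of each of the 8 genes found, on linear axes that start at 0, with a circle for replicate 1, a triangle for replicate 2 and a bar for the mean of gefitinib, afatinib and untreated skin. For Tsc22d3, Zbtb16, Klf9, Cebpd and Dusp1 all 4 inhibitor libraries lie below both untreated libraries, while the groups of Sgk1 overlap.

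Fkbp5 (ENSRNOG00000022523, chromosome 20, 7976713 to 8019020, minus strand in the coordinates of the count table, for which no source used here names a build) encodes a co-chaperone of Hsp90 that lowers the receptor's affinity for hormone, and its induction by the receptor closes a short feedback loop. It stood at 40.4 and 76.5 CPM with gefitinib, at 14 and 32.9 CPM with afatinib, and at 60.7 and 62.1 CPM in untreated skin. The gefitinib libraries lay on either side of the untreated ones, and both afatinib libraries lay below them. The log2 fold change was -0.07 ± 0.45 (SE) for gefitinib, whose sign turned to 0.26 without gefitinib replicate 1 and to 0.58 when counts were scaled by library size only, and -1.39 ± 0.46 for afatinib. Neither passed edgeR's quasi-likelihood test (adjusted p = 0.919 for gefitinib and 0.137 for afatinib). For both inhibitors together the value was -0.73 ± 0.38 (edgeR adjusted p = 0.210), with a 95% interval of -1.62 to 0.16.

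Tsc22d3 (ENSRNOG00000056135, chromosome X, 111884295 to 111887906, minus strand) encodes the glucocorticoid-induced leucine zipper protein GILZ, which binds and restrains the inflammatory factors NF-kB and AP-1. It stood at 72.5 and 121 CPM with gefitinib, at 93.3 and 53.9 CPM with afatinib, and at 263 and 214 CPM in untreated skin. Every inhibitor library lay below both untreated libraries, and the libraries of the inhibitors overlapped. Tsc22d3 fell by 1.5 ± 0.32 on the log2 scale for both inhibitors together (edgeR adjusted p = 0.0253), a factor of 2.82. The fold changes for each drug alone were -1.30 ± 0.39 for gefitinib (adjusted p = 0.0581) and -1.70 ± 0.39 for afatinib (adjusted p = 0.0598), just outside the threshold in edgeR's test. The call for both inhibitors ended without gefitinib replicate 1 (log2 fold change -1.40, adjusted p = 0.0719), without untreated replicate 1 (-1.35, adjusted p = 0.157) and without untreated replicate 2 (-1.64, adjusted p = 0.135). With 1 untreated library left, few genes of any kind passed edgeR's test: 20 of all genes without untreated replicate 1 and 3 without untreated replicate 2, against 2618 with both.

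Dusp1 (ENSRNOG00000003977, chromosome 10, 16970626 to 16973418, plus strand) encodes a phosphatase that switches off MAP kinases and through which glucocorticoids damp inflammatory signalling. It stood at 117 and 102 CPM with gefitinib, at 204 and 108 CPM with afatinib, and at 262 and 241 CPM in untreated skin. All 4 inhibitor libraries lay below both untreated ones, with afatinib replicate 1 the closest to them. The log2 fold change was -0.94 ± 0.30 for both inhibitors (edgeR adjusted p = 0.0721), -1.20 ± 0.36 for gefitinib (adjusted p = 0.0590) and -0.69 ± 0.36 for afatinib (adjusted p = 0.312), none of which passed. Dusp1 is also an immediate early gene, switched on within minutes by growth factors and by stress.

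Klf9 (ENSRNOG00000014215, chromosome 1, 240908483 to 240933198, plus strand) encodes a zinc finger factor that slows the growth of human keratinocytes and follows both the clock and glucocorticoids. It stood at 25.3 and 46.0 CPM with gefitinib, at 62.1 and 42.8 CPM with afatinib, and at 74.6 and 123 CPM in untreated skin. All 4 inhibitor libraries lay below both untreated libraries, and gefitinib replicate 1 was the lowest. Klf9 fell by 1.47 ± 0.40 on the log2 scale with gefitinib (edgeR adjusted p = 0.0447) and by 1.19 ± 0.33 for both inhibitors together (adjusted p = 0.0486), factors of 2.78 and 2.29. For afatinib alone the value was -0.92 ± 0.39 (edgeR adjusted p = 0.229). Both calls sat close to the threshold. The call for both inhibitors ended without any one of gefitinib replicate 1 (-1.08), gefitinib replicate 2 (-1.53), afatinib replicate 2 (-1.14), untreated replicate 1 (-1.52) or untreated replicate 2 (-0.79), at edgeR adjusted p values of 0.0546 to 0.335. The gefitinib call ended without any one of the 2 gefitinib or the 2 untreated libraries, with log2 fold changes from -2.05 to -1.06.

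Zbtb16 (ENSRNOG00000029980, chromosome 8, 52985313 to 53146953, minus strand) encodes the zinc finger repressor PLZF, one of the genes most strongly induced by glucocorticoids in many cell types. It stood at 4.90 and 8.49 CPM with gefitinib, at 4.35 and 6.09 CPM with afatinib, and at 11.5 and 36.7 CPM in untreated skin. The untreated libraries differed from each other more than the inhibitor libraries did, and the lower untreated value was still above all 4 inhibitor values. Zbtb16 fell by 2.02 ± 0.47 on the log2 scale for both inhibitors together (edgeR adjusted p = 0.0308), a factor of 4.07. For gefitinib alone the value was -1.85 ± 0.58 (adjusted p = 0.0643) and for afatinib alone -2.20 ± 0.58 (adjusted p = 0.0820), both outside the threshold in edgeR's test. Without untreated replicate 2 the fold change for both inhibitors was -0.95 (adjusted p = 0.314), so a good part of its size rested on that library. The call also ended without untreated replicate 1 (-2.63), gefitinib replicate 1 (-1.93) or gefitinib replicate 2 (-2.34).

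Cebpd (ENSRNOG00000050869, chromosome 11, 89008008 to 89009146, plus strand) and Cebpb (ENSRNOG00000057347, chromosome 3, 164424515 to 164425910, plus strand) encode leucine zipper factors of the C/EBP family, which respond to glucocorticoids and to inflammatory signals alike. Cebpd stood at 80.9 and 70.0 CPM with gefitinib, at 41.1 and 26.6 CPM with afatinib, and at 101 and 103 CPM in untreated skin. The 3 groups did not overlap, with afatinib lowest. Cebpd fell by 1.59 ± 0.28 on the log2 scale with afatinib (edgeR adjusted p = 0.0369) and by 1.01 ± 0.23 for both inhibitors together (adjusted p = 0.0310), factors of 3.01 and 2.02. For gefitinib alone the value was -0.43 ± 0.28 (edgeR adjusted p = 0.290), and it turned to 0.26 when counts were scaled by library size only. The call for both inhibitors ended without either gefitinib library (-1.13 and -1.04) or either untreated library (-1.03 and -0.997). The afatinib call ended without afatinib replicate 2 (-1.37), without either gefitinib library (-1.67 each) and without either untreated library (-1.61 and -1.58). Cebpb stood at 224 and 206 CPM with gefitinib, at 123 and 145 CPM with afatinib, and at 224 and 175 CPM in untreated skin. Its gefitinib and untreated libraries overlapped, and both afatinib libraries lay below both. The Cebpb fold change was 0.11 ± 0.29 for gefitinib (edgeR adjusted p = 0.801) and -0.57 ± 0.29 for afatinib (adjusted p = 0.298). The first turned to -0.05 without untreated replicate 2 and the second to 0.08 with library size only.

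Sgk1 (ENSRNOG00000011815, chromosome 1, 24185435 to 24302298, minus strand) encodes a kinase that raises sodium uptake through the epithelial sodium channel and answers to mineralocorticoids, osmotic stress and growth factors as well as to glucocorticoids. It stood at 44.1 and 54.3 CPM with gefitinib, at 41.4 and 50.3 CPM with afatinib, and at 47.9 and 37.5 CPM in untreated skin. The groups overlapped throughout. The log2 fold change for both inhibitors was 0.15 ± 0.22 (edgeR adjusted p = 0.641), with a 95% interval of -0.37 to 0.67, and it turned to -0.01 without gefitinib replicate 2 or without untreated replicate 2. That interval lies above the point estimates of the 4 genes that fell.

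**Figure D2:**
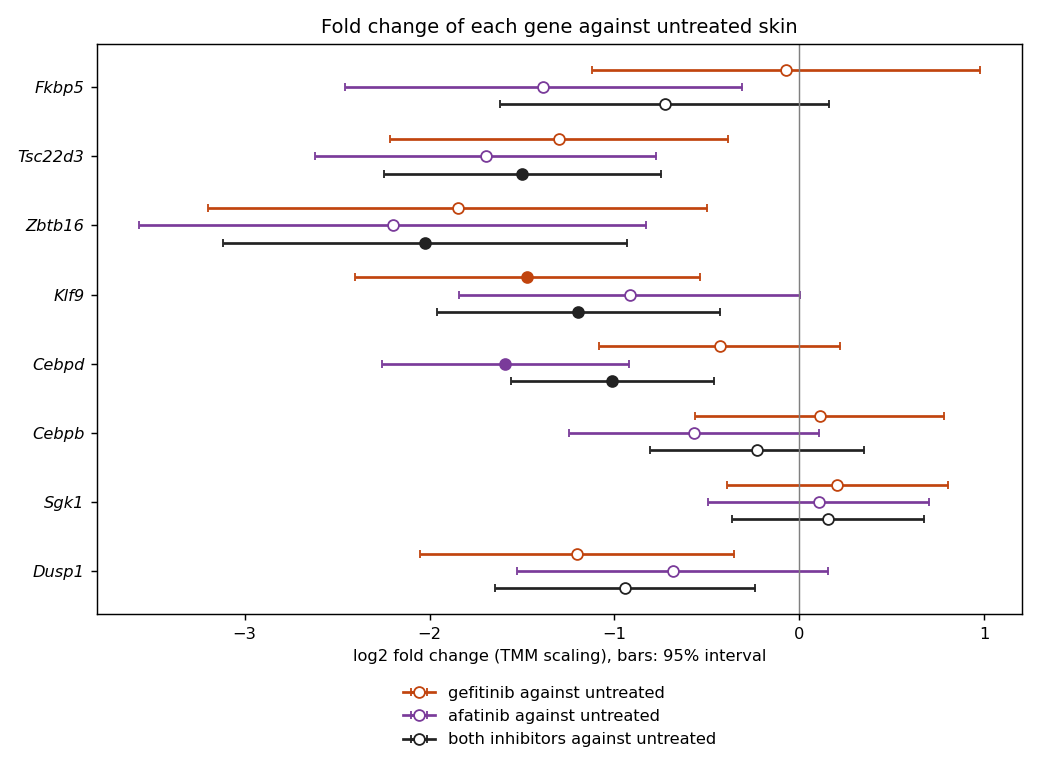
Log2 fold change of each of the 8 genes with its 95% interval for gefitinib (orange), afatinib (purple) and both inhibitors (black) against untreated skin, with filled circles for an adjusted p below 0.05 in edgeR's test. Klf9 is filled for gefitinib, Cebpd for afatinib, and Tsc22d3, Zbtb16, Klf9 and Cebpd for both inhibitors, all below 0.

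In the separation of libraries, 5 of the 8 genes had both gefitinib libraries below both untreated ones, which held for 33.9% of all genes tested. With afatinib this was so for 7 of the 8, all but Sgk1, against 21.8% of all genes. All 4 inhibitor libraries lay below both untreated libraries for 5 of the 8, namely Tsc22d3, Zbtb16, Klf9, Cebpd and Dusp1, against 18.8% of all genes. The inhibitor libraries lay all above the untreated ones for 0 of the 8 genes with gefitinib, with afatinib and with both, against 38.8%, 31.5% and 27.2% of all genes.

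In afatinib against gefitinib skin, 0 of the 8 genes passed, and 0% of all genes did; 946 of the 16398 genes had an unadjusted p below 0.05 in edgeR's test, DESeq2 called 31 genes and limma-voom called 0. The doses differed, so the difference is one between these treatments as given. Cebpd had the smallest p of the 8, with a log2 fold change of -1.16 ± 0.28, a 95% interval of -1.82 to -0.50 and an edgeR adjusted p of 0.787. Fkbp5 followed with -1.31 ± 0.46, an interval of -2.38 to -0.24 and the same adjusted p, and Cebpb with -0.68 ± 0.29. Those 3 genes had unadjusted p values below 0.05. They were also the 3 of 8 whose afatinib libraries both lay below both gefitinib libraries, which held for 19.9% of all genes, and 0 of the 8 lay all above, against 17.1% of all genes. The difference was 0.56 ± 0.39 for Klf9, 0.52 ± 0.36 for Dusp1, -0.40 ± 0.38 for Tsc22d3, -0.35 ± 0.57 for Zbtb16 and -0.10 ± 0.25 for Sgk1. The narrowest 95% interval among these 5 genes, that of Sgk1, ran from -0.70 to 0.49.

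The scaling between libraries set how large these differences appeared. Scaled by library size only, the median of all genes shifted to a log2 fold change of 0.72 for both inhibitors against untreated, and 0 of the 8 genes passed. The 4 genes kept negative values, at -0.90 for Tsc22d3 (edgeR adjusted p = 0.0504), -1.39 for Zbtb16, -0.60 for Klf9 and -0.39 for Cebpd, while Cebpb turned to 0.44. Taken relative to the median of all genes, the same values were -1.62 for Tsc22d3, -2.11 for Zbtb16, -1.32 for Klf9 and -1.11 for Cebpd. Among all genes called for both inhibitors, 69.1% were higher with TMM and 93.3% with library size only. Scaling factors computed without the 12 muscle genes left the same number of the 8 genes called, 4. The median of all genes stayed at 0.06, so this step changed the scaling little. It does not test the part of muscle in the values of the 8 genes.

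**Figure D3:**
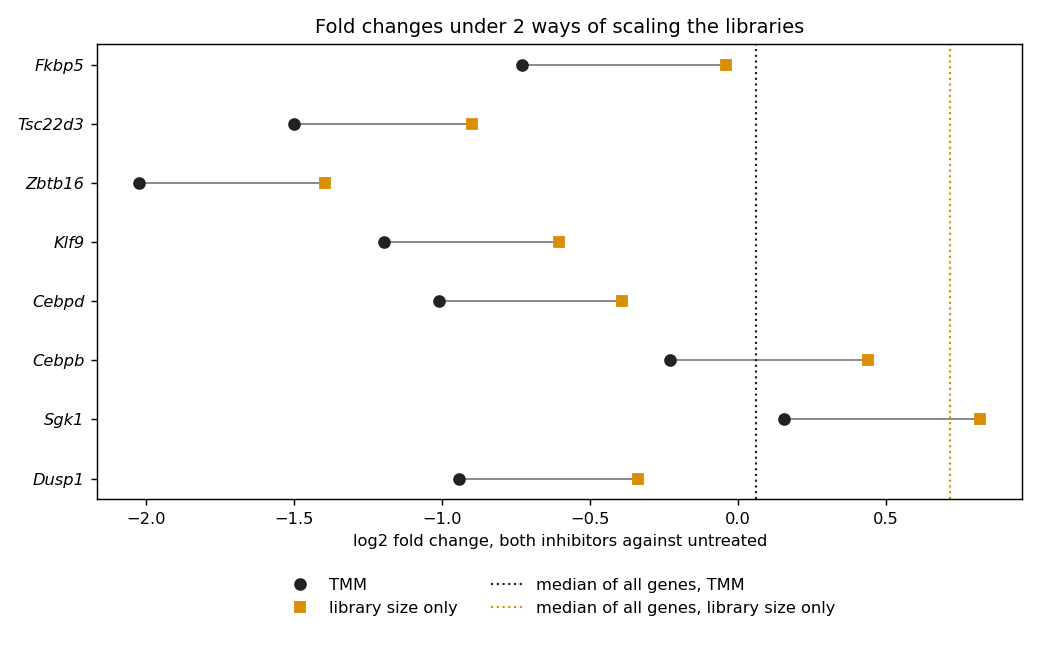
Log2 fold change of the 8 genes for both inhibitors against untreated under TMM scaling and under library size only, with the median of all genes tested for each scaling. The median of all genes lies at 0.06 with TMM and at 0.72 with library size only. Every gene but Sgk1 lies below it under both.

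Per length, in the authors' deposited FPKM, Cebpb was the most abundant of the 8 messages in every group, at 152 ± 6.72, 92.4 ± 8.68 and 144 ± 24.6 FPKM with gefitinib, with afatinib and in untreated skin (mean ± SD, n = 2 each). Zbtb16 was the least abundant in every group, at 2.52, 1.91 and 9.29 FPKM in that order of groups. In untreated skin the order of mean FPKM below Cebpb was Dusp1 (131), Tsc22d3 (125), Cebpd (90.4), Klf9 (39.9), Fkbp5 (18.3), Sgk1 (11.8) and Zbtb16. Within that order the library ranges of Cebpb and Dusp1, of Dusp1 and Tsc22d3, and of Sgk1 and Zbtb16 overlapped, and the other neighbours were apart. With gefitinib Cebpd stood second by mean at 65.3 FPKM, above Dusp1 at 55.7 and Tsc22d3 at 49.5. The ranges of Dusp1 and Tsc22d3 overlapped, and the higher Tsc22d3 library (62.5) also lay above the lower Cebpd library (61.3). Fkbp5 (17.1), Klf9 (14.1) and Sgk1 (13.3) followed, each overlapping the next. With afatinib Dusp1 stood second at 78.1 FPKM, Tsc22d3 next at 36.7, Cebpd at 28.7, Klf9 at 20.2, Sgk1 at 12.05 and Fkbp5 next to last at 6.61 FPKM. There the ranges of Cebpb and Dusp1, of Tsc22d3 and Cebpd, and of Cebpd and Klf9 overlapped, and the other neighbours were apart.

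The promoters of these genes were read in RefSeq windows of the GRCr8 assembly, from 250 bases before to 50 bases after each start. Of the 9 genes 7, Nr3c1 included, matched 12 windows, since Sgk1, Tsc22d3 and Nr3c1 have more than 1 start. The windows were searched on both strands for the receptor's own element, in a loose form GNACANNNTGTNC and as the full palindrome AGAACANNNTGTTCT, and for its 6-base arm AGAACA. The loose form stood in 0.439% of 33469 windows, the full palindrome in 0.0149% and the arm in 20.7%, and none of the 3 stood in any of the 12. So few windows hold the loose form or the full palindrome that finding none in 12 carries little weight. Sequence outside the windows was not searched. After the windows were read, the short cAMP response motif TGACG was searched too. It stood in 21.2% of all windows and in 1 window each of Klf9, Tsc22d3, Dusp1 and Cebpb, and its palindrome TGACGTCA, which contains the short motif on both strands, stood in 1.83% of all windows and in that of Dusp1. These letters are a description of the windows and not of a bound site. The 250 bases before the start are shown for the 2 genes that fell for which a window held these letters and for Dusp1, whose window holds the palindrome; capitals mark TGACG or TGACGTCA. The Tsc22d3 window is 1 of 3 for that gene and is at chrX:109010035-109010284 on the minus strand; Klf9 is at chr1:230126396-230126645 and Dusp1 at chr10:17184603-17184852, both on the plus strand.
Klf9: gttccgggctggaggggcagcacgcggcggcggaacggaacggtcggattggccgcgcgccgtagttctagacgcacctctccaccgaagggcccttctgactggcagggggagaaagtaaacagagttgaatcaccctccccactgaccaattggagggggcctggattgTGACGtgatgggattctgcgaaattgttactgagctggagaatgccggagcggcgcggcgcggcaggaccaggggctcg
Tsc22d3: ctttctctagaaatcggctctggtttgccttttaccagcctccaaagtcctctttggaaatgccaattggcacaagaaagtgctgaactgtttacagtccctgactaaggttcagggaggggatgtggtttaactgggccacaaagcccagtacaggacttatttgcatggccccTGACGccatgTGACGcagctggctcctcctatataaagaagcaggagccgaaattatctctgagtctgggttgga
Dusp1: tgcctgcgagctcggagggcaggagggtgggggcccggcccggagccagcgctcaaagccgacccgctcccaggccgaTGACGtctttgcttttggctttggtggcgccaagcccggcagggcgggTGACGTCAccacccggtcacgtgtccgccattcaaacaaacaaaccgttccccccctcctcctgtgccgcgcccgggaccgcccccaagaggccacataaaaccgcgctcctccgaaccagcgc
Counted back from the start, with -1 the base before it, the short motif begins at -79 in Klf9 and at -75 and -65 in Tsc22d3. In Dusp1 it begins at -172 and -124, the last of these within the palindrome. The window of Cebpb, a gene that was not called, is not shown. It holds the motif at -107 and -61 and its reverse complement at -234.

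Nr3c1 was followed by its description only. A single row with the clone name AABR07031756.2 (ENSRNOG00000048800, chromosome 18) carries a glucocorticoid receptor protein domain in its description, and it was noticed after the files were read and is not taken here as Nr3c1. It had 5.41 and 3.59 CPM with gefitinib, 6.63 and 9.68 CPM with afatinib, and 7.05 and 12.4 CPM in untreated skin. Its log2 fold change for both inhibitors was -0.68 (edgeR adjusted p = 0.221). Among the other steroid receptors, 4 of 5 listed genes could be tested and 0 passed. The smallest p belonged to Nr3c2, the mineralocorticoid receptor, which also binds corticosterone, at 1.65 and 0.832 CPM with gefitinib, 3.31 and 2.01 CPM with afatinib, and 2.70 and 5.06 CPM in untreated skin (log2 fold change -1.10 ± 0.48, edgeR adjusted p = 0.152). Esr1, an oestrogen receptor, had a log2 fold change of -0.65 ± 0.55 (edgeR adjusted p = 0.426).

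Upstream of the target genes, the receptor's partners gave few calls. For both inhibitors 4.93% of all genes tested were lower and 11% higher. Of 13 chaperones and co-chaperones tested, 1 was lower and 0 were higher, with a median log2 fold change of -0.16 beside 0.06 for all genes. The one was Hspa1b, an inducible Hsp70, which fell by 1.31 ± 0.28 (edgeR adjusted p = 0.0245) and had 23.1 and 39.0 CPM with gefitinib, 30.5 and 21.7 CPM with afatinib, and 79.9 and 61.5 CPM in untreated skin. No chaperone passed without gefitinib replicate 1 or without either untreated library, and 2 were lower without afatinib replicate 1. Of 14 co-regulators tested 0 passed, and their median was 0.12, with 2 higher without afatinib replicate 1. Smarca4, an ATPase of the SWI/SNF remodelling complex, had the smallest p (log2 fold change 0.75 ± 0.28, edgeR adjusted p = 0.101). Of 13 tested genes of corticosteroid synthesis, activation and transport, 1 was higher and 2 were lower, with a median of 0.39. Cyp11a1, which makes pregnenolone from cholesterol, had 10.9 and 11.3 CPM with gefitinib, 2.79 and 9.02 CPM with afatinib, and 0.761 and 0.873 CPM in untreated skin (log2 fold change 3.30 ± 0.59, edgeR adjusted p = 0.0170). Hsd11b1, which regenerates active glucocorticoid inside cells, had 9.21 and 7.92 CPM with gefitinib, 15.5 and 10 CPM with afatinib, and 24.8 and 20.9 CPM in untreated skin, and fell by 1.13 ± 0.26 (adjusted p = 0.0311). Akr1c14, a hydroxysteroid dehydrogenase, fell by 1.97 ± 0.38 (edgeR adjusted p = 0.0198). The calls in this list became 2 higher and 4 lower without afatinib replicate 1, 1 and 1 without gefitinib replicate 1, 1 and 0 without gefitinib replicate 2, and 0 and 0 without either untreated library.

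Downstream, other genes that glucocorticoids induce gave more lower than higher calls with TMM scaling. Of the 37 tested of 40 listed, 14 were lower and 4 were higher for both inhibitors, where 4.93% of all genes tested were lower and 11% higher. The median log2 fold change of the list was -0.45 beside 0.06 for all genes. Gefitinib alone gave 8 lower and 4 higher, where 5.45% of all genes were lower and 12.3% higher. Afatinib alone gave 5 lower and 3 higher, where 0.372% of all genes were lower and 3.6% higher. Pdk4, which spares glucose by inhibiting pyruvate dehydrogenase, had 147 and 154 CPM with gefitinib, 73.6 and 48.4 CPM with afatinib, and 385 and 1200 CPM in untreated skin (log2 fold change -3.05 ± 0.45, edgeR adjusted p = 0.0136). Cited2, a co-regulator of transcription, fell by 1.92 ± 0.28 (adjusted p = 0.0135 in the same edgeR test). The 4 higher genes were the metallothioneins Mt1 and Mt2A, Mfsd2a and Scnn1a. Mt1, which binds zinc and also answers to metals and cytokines, had 49.6 and 46.6 CPM with gefitinib, 21.5 and 33.7 CPM with afatinib, and 5.12 and 7.16 CPM in untreated skin (log2 fold change 2.57 ± 0.30, edgeR adjusted p = 0.0108). Mt2A rose by 3.54, Mfsd2a, a lipid transporter, by 3.30 and Scnn1a, a subunit of the epithelial sodium channel, by 2.37 on the log2 scale; Mt2A and Mfsd2a were named after their values were seen. The calls became 9 lower and 3 higher without gefitinib replicate 1, 7 and 3 without gefitinib replicate 2, 17 and 7 without afatinib replicate 1, 1 and 0 without untreated replicate 1, and 0 and 0 without untreated replicate 2. With library size only the split was 4 lower and 7 higher, and the median turned to 0.16. The lower genes Fbxo32 (log2 fold change -2.69) and Klf15 (-1.82), named here after their values were seen, are also expressed in skeletal muscle, whose markers shifted as given above. The part of muscle in the values of these and the other lower genes, Pdk4 included, was not tested.

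Inflammatory genes that glucocorticoids repress gave calls in 1 direction. For both inhibitors, gefitinib and afatinib in turn, 11%, 12.3% and 3.6% of all genes tested were higher, and 4.93%, 5.45% and 0.372% lower. Of 22 tested of 29 listed, 12 were higher and 0 were lower for both inhibitors, 10 with gefitinib and 8 with afatinib. Their median log2 fold change was 3.89, beside 0.06 for all genes. It was 3.34 when the 2 genes at 0 in both untreated libraries were set to the bound from a floor of 3 counts per library. A further 3 genes had 1 to 3 untreated counts in total and kept their fitted values in that median. Ptgs2, the inducible cyclooxygenase, had 4.74 and 4.95 CPM with gefitinib, 13.9 and 20.3 CPM with afatinib, and 0.830 and 0.349 CPM in untreated skin (log2 fold change 3.96 ± 0.48, edgeR adjusted p = 0.0108). Mmp13, a collagenase, had 183 and 304 reads with gefitinib, 661 and 1739 reads with afatinib, and 2 and 3 reads in untreated skin. Mmp9, a gelatinase that neutrophils also carry, had 177 and 275 reads with gefitinib, 540 and 1332 reads with afatinib, and 0 and 2 reads in untreated skin. Without either untreated library none of the 22 passed. The summed neutrophil markers were higher than in untreated skin in every inhibitor library too, and their part in these counts was not tested. Of 4 tested keratin genes that the receptor represses in human keratinocytes, 3 were higher and 0 were lower, with a median of 2.53. Krt17, a keratin of stressed and follicular epidermis, had 701 and 525 CPM with gefitinib, 427 and 644 CPM with afatinib, and 43.2 and 92.9 CPM in untreated skin (log2 fold change 3.07 ± 0.47, edgeR adjusted p = 0.0141). Krt5, the basal keratin, rose by 1.99 ± 0.43 (adjusted p = 0.0267), and Krt16 had 294 and 126 reads with gefitinib, 530 and 491 reads with afatinib, and 1 and 2 reads in untreated skin. Without either gefitinib library 2 keratin genes passed, and without either untreated library none. The summed keratinocyte markers were higher in every inhibitor library too, and that list shares Krt5 and Krt14 with this one. The hair follicle and shaft markers, 12 of 12 of them higher for both inhibitors together, summed to 1199 to 4672 CPM in the inhibitor libraries. In untreated skin they summed to 81.5 and 290 CPM. The part of either cell type in the keratin values was not tested.

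**Figure D4:**
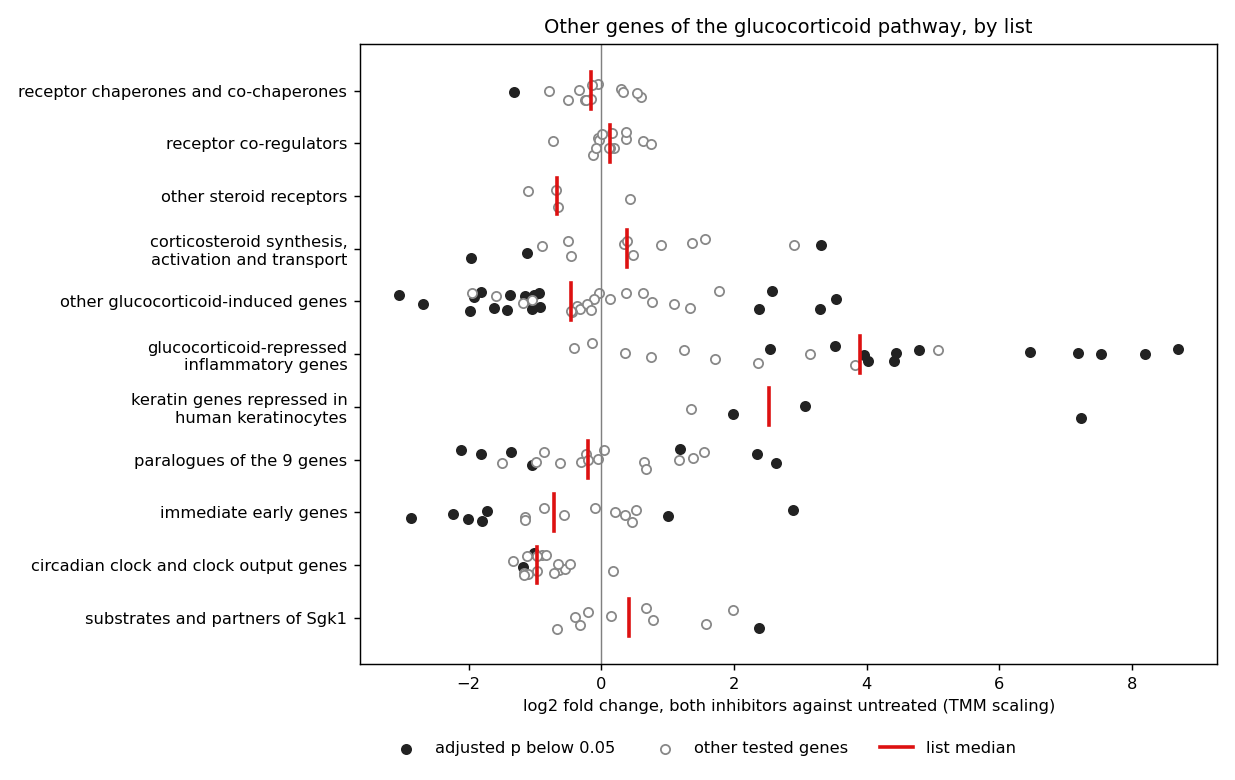
Log2 fold change of each tested gene of the pathway lists for both inhibitors against untreated, with filled circles for an adjusted p below 0.05 in edgeR's test, open circles for the other genes and a red bar at the median of each list. The inflammatory genes that glucocorticoids repress have the highest median, 3.89, and the clock genes the lowest, -0.97.

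Other genes that share regulation or sequence with the members were read the same way, for both inhibitors, where 4.93% of all genes tested were lower and 11% higher. Of 16 immediate early genes, 5 were lower and 2 were higher, with a median of -0.71 beside 0.06 for all genes. Fos, a subunit of AP-1, had 40.1 and 27.3 CPM with gefitinib, 59.8 and 40.4 CPM with afatinib, and 163 and 122 CPM in untreated skin (log2 fold change -1.79 ± 0.27, edgeR adjusted p = 0.0137). Atf3 fell by 2.86 ± 0.43 and Btg2, an antiproliferative gene, by 1.73 ± 0.23 in the same test. Without afatinib replicate 1 the immediate early calls were 8 lower and 2 higher, without either gefitinib library none was higher, and without either untreated library none passed. Of 17 clock and clock output genes 2 were lower and 0 were higher, with a median of -0.97, and with library size only 0 were lower. The lower count moved most with single libraries, to 11 without afatinib replicate 1, 4 without afatinib replicate 2, and 0 without any one of the gefitinib or untreated libraries. Per1, a clock gene that the receptor also induces directly, had 51.7 and 60.9 CPM with gefitinib, 44.6 and 36.2 CPM with afatinib, and 97.3 and 96.4 CPM in untreated skin (log2 fold change -1.02 ± 0.20, edgeR adjusted p = 0.0205). Npas2, a partner of Bmal1, fell by 1.19 ± 0.31, and Nr1d2, a nuclear receptor of the clock, had -1.12 ± 0.37 (adjusted p = 0.0784 in edgeR's test). The hour of sampling is not given, so time of day and treatment cannot be told apart in these genes. The same holds for the 8 target genes and for the other genes that glucocorticoids induce.

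Among 21 tested paralogues of the 9 genes, 3 were higher and 4 were lower, with a median of -0.21. Of all genes tested 11% were higher and 4.93% lower. Cebpa, the C/EBP factor of epidermal and sebaceous differentiation, had 92.9 and 92.8 CPM with gefitinib, 41.3 and 100 CPM with afatinib, and 13.7 and 18.2 CPM in untreated skin (log2 fold change 2.35 ± 0.40, edgeR adjusted p = 0.0158). It lay above both untreated libraries in all 4 inhibitor libraries, where Cebpd lay below them in all 4. Dusp2, a nuclear MAP kinase phosphatase, rose by 2.63 ± 0.41, and Klf6 fell by 1.36 ± 0.25 in the same test. The paralogue calls became 6 higher and 7 lower without afatinib replicate 1, and 2 and 2 without either gefitinib library. Of 10 substrates and partners of Sgk1, 1 was higher and 0 were lower: Scnn1a, with 6.74 and 6.08 CPM with gefitinib, 3.12 and 8.06 CPM with afatinib, and 1.45 and 0.873 CPM in untreated skin (log2 fold change 2.37 ± 0.54, edgeR adjusted p = 0.0299). Scnn1g had 1.99 ± 0.56 (adjusted p = 0.0515) and Nedd4l, the ubiquitin ligase that Sgk1 inhibits, -0.66 ± 0.26 (adjusted p = 0.116), neither past the threshold in edgeR's test. Among these partners 4 were higher without afatinib replicate 1 and none without either gefitinib library. With 1 untreated library left, at most 1 gene passed in any of these pathway lists for both inhibitors.

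Over the 6 libraries, which fall into 3 treatment groups and differ in marker RNA, the 8 genes did not all follow each other. Among pairs of them the highest Pearson correlations of log2 CPM were 0.80, for Klf9 with Dusp1, Zbtb16 with Klf9, Fkbp5 with Cebpb and Tsc22d3 with Cebpd, and the lowest was -0.64 for Sgk1 with Dusp1. Among 10331 named genes with a mean of at least 5 CPM, the profile most like that of Fkbp5 was Pkn2 (r = 0.99), followed by Arhgap12 (0.97), Sbk2 (0.96) and Nsmaf (0.96). The profile most like that of Tsc22d3 was Slc7a6 (0.997), followed by Hspa1b, Exoc3 and Spns1 (0.99 each). These are descriptions over 6 points and carry no test.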

How the data were processed

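Messenger RNA counts were analysed for 6 rat skin libraries in 3 groups of 2. The table of counts the authors deposited gives whole reads for each gene, unscaled. The authors' deposited FPKM table gives, for each gene, reads over gene length and over a library divisor, which ran from 14331258 to 27387101 and was not the library total. The tools named, per the submitters' processing notes, were DESeq2 1.16.1, HISAT2 2.0.5 and also featureCounts 1.5.0-p3. Their roles, the build, the annotation and the strand setting were not stated in any source used here, so reads of overlapping or antisense genes cannot be told apart. The 1342 unnamed genes, with 1.68% to 2.54% of the counts, stayed in the library sizes and tests. The labels name no molecular identifiers, so read counts are not independent molecules and counting intervals would cover counting error only.

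Genes were filtered with filterByExpr, which kept 99.91% to 99.96% of the counts, and scaled with TMM. The test was edgeR's quasi-likelihood test (edgeR 4.0.16, R 4.3.3) on all 6 libraries, with a coefficient for each group. P-values were two-sided, adjusted by Benjamini-Hochberg over 16398 genes, and called below 0.05. Standard errors were derived from the F statistic. The script was tested on simulated counts. Alternatives were library size only, RLE factors, TMM without muscle genes, no filter, DESeq2 1.42.0, limma-voom (limma 3.58.1), 2 groups only, a replicate block and each library left out. The members and gene lists were chosen with earlier results of these data known. Besides the members, up to 3 genes per pathway list with the smallest p for both inhibitors were named, and for Fkbp5 and Tsc22d3 the 4 genes of highest correlation; that for Nr3c1 could not be computed, and 1 gene the rule names is not reported here. Promoters come from RefSeq, GRCr8; Zbtb16 and Cebpd had no window in the table used here.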

Additional observations from a re-analysis of the deposited data

How the results depend on the processing

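Of 472 values of the 8 genes under an alternative, 390 kept their direction and their side of the threshold. Another 28 passed it anew, 37 no longer passed and 17 changed direction. Most of the 472 belong to genes and comparisons without a call in the main fit, which had no call to lose. For both inhibitors the call of Tsc22d3 held under 10 of 14 alternatives, Cebpd under 9, Zbtb16 under 8 and Klf9 under 6. The gefitinib call of Klf9 held under 9 of 15 alternatives, and the afatinib call of Cebpd under 7 of 15. The number of the 8 genes called for gefitinib was 1, and became 0 with library size only, 4 without the filter, 4 with DESeq2 and 3 with 2 groups only. For afatinib it was 1, and became 0 with library size only, 4 without the filter, 4 with DESeq2, 0 with limma-voom and 0 with 2 groups only. For both inhibitors it was 4, and became 0 with library size only and 2 with limma-voom; a fit of 2 groups only does not apply to that comparison. Over all genes, gefitinib gave 2906 calls, and 4550 without the filter, 4682 with DESeq2 and 5286 with 2 groups only. Afatinib gave 652, and 1281 with library size only, 2083 without the filter, 1992 with DESeq2, 34 with limma-voom and 51 with 2 groups only. Both inhibitors gave 2618, and 4200 without the filter and 4251 with DESeq2. Afatinib against gefitinib gave 0, and 1 with library size only, 28 without the filter and 31 with DESeq2. The causes were not tested. Of the gefitinib calls 94.1% were higher with library size only, against 69.3% with TMM, and of the afatinib calls 97.6% against 90.6%.

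In the pathway lists for both inhibitors, the lower clock genes, 2, became 8 without the filter, 8 with DESeq2, 0 with library size only, 1 with the block and 6 with it crossed; the higher induced genes, 4, became 7 without the filter and 7 with library size only, where the lower ones, 14, became 4. With library size only the calls were 2 higher and 0 lower chaperones, 1 higher co-regulator, 3 higher and 1 lower corticosteroid genes, 6 higher and 2 lower paralogues and 3 higher Sgk1 partners. The higher inflammatory genes that glucocorticoids repress, 12, became more with library size only. Moves of the other such counts are not listed here.

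Leaving out each library in turn gave 0 to 5320 genes for gefitinib, 0 to 3653 for afatinib, 3 to 5809 for both and 0 to 3 between the drugs, and 0 to 4, 0 to 3, 0 to 5 and 0 of the 8 genes in the same comparisons. The ranges of log2 fold change that crossed 0 were -0.68 to 0.26 for Fkbp5, -0.030 to 0.39 for Sgk1 and -0.055 to 0.30 for Cebpb with gefitinib, -0.10 to 0.28 for Sgk1 with afatinib, -0.0093 to 0.34 for Sgk1 with both, and -0.85 to 0.018 for Tsc22d3, -0.74 to 0.079 for Zbtb16, -0.28 to 0.042 for Sgk1 and -0.020 to 0.91 for Dusp1 between the drugs. With library size only, Fkbp5 went to 0.58 and Cebpd to 0.26 for gefitinib, and Cebpb to 0.078 for afatinib and 0.44 for both.

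The labels do not say that the replicate numbers pair the libraries. Deviations from the group means correlated at -0.17 between gefitinib and afatinib, 0.03 between gefitinib and untreated and 0.04 between afatinib and untreated. With 2 libraries per group these values cannot decide whether the numbers pair them. With the replicate block, 2298 genes were called for gefitinib, 369 for afatinib, 2031 for both and 0 between the drugs, and 1, 1, 3 and 0 of the 8 genes. With the afatinib numbers crossed in the block, an alternative chosen after seeing the data, 3205, 620, 2889 and 0 genes were called, and 2, 1, 4 and 0 of the 8. With 2 libraries per group, every call rests on few samples.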
